A study of Homo sapiens with 12 samples.

Results

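The lysosome and autophagy genes described here are a named list of 39 genes, all of which were matched to 1 of the 54127 gene identifiers in the count files. Of these, 17 encode lysosomal enzymes, lipid-handling proteins and membrane proteins, 20 encode the machinery that builds the autophagosome together with the cargo receptor SQSTM1, and 2 encode the transcription factors TFEB and TFE3. All 39 passed the filter on low counts, which kept 14501 genes for testing. They were compared between cells of C4-2, a prostate cancer line of human origin that descends from LNCaP, which received a pool of siRNAs against CHKA (siCHKA, 6 samples) or nontargeting siRNA (siNT, 6 samples). CHKA encodes choline kinase alpha, the first enzyme of the pathway that makes phosphatidylcholine. Both groups were grown in RPMI medium with fetal bovine serum and reverse transfected with 50 nM of siRNA using a lipid reagent, and both carried no other stated genetic change. RNA was taken from cells that the labels describe as flow sorted, and the time between transfection and harvest was not given in the sources used here. The model is therefore 1 cell line, 1 siRNA pool per group and 1 dose.

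The lysosome is the acidic compartment in which proteins, glycans and lipids are broken down, and its soluble hydrolases reach it through the mannose 6-phosphate receptors. Autophagy delivers cytoplasm to it: a kinase complex starts the process, a lipid kinase complex marks the forming membrane, and a ubiquitin-like conjugation system attaches ATG8 proteins such as LC3 to the growing autophagosome, which then fuses with the lysosome. TFEB and TFE3 are related transcription factors known to bind a short promoter sequence, the CLEAR element, that many lysosomal genes carry.

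The siRNA lowered its target in every sample. CHKA (ENSG00000110721) was measured at 2.75 ± 1.03 CPM (counts scaled to library size after TMM normalization; SD, n = 6) after siCHKA, whereas siNT samples held 40.7 ± 2.55 CPM (SD, n = 6). On the log2 scale CHKA fell by 3.88 (SE 0.14, edgeR quasi-likelihood test with Benjamini-Hochberg adjustment, adjusted p = 5.89e-13). The samples held 10685184 to 24246055 reads on genes. Prostate luminal markers, KLK3 among them, were present in all samples, whereas AIF1, LYZ, LUM, CDH5, KRT5 and TP63, defining markers of macrophages, fibroblasts, endothelium and basal cells, were at or near 0, with at most 0.0854 CPM in any sample. The summed level of the 5 macrophage markers ranged from 0.784 to 1.39 CPM after siCHKA and from 0.559 to 1.24 CPM after siNT. That of the 5 fibroblast markers ranged from 24.1 to 30.4 CPM after siCHKA and from 11.4 to 18.5 CPM after siNT, nearly all of it COL1A1, while COL1A2, DCN, FAP and LUM stayed at or below 0.290 CPM. The endothelial markers summed to 1.13 to 1.86 CPM after siCHKA and 2.05 to 3.65 CPM after siNT, nearly all of it VWF, which fell (log2 fold change -0.995, edgeR adjusted p = 4.77e-05). The basal markers summed to 1.57 to 2.10 CPM after siCHKA and 0.981 to 1.46 CPM after siNT, nearly all of it KRT14, which rose (log2 fold change 0.58, edgeR adjusted p = 0.00247). The part of these transcripts in the results was not tested. Among the siCHKA samples, replicates 1, 3 and 5 differed from replicates 2, 4 and 6: pairs across these sets differed by a chi-square per degree of freedom of 12.5 to 24.9, against 2.39 to 9.50 within them. The siNT samples also differed among themselves, by 5.29 to 30.9 in the 5 pairs that hold siNT replicate 3 and by 2.51 to 13.7 in the other 10 pairs. Without siNT replicate 3, WIPI1 alone among the members lost its call (log2 fold change 0.20, edgeR adjusted p = 0.0524). The labels do not say what the sets are, and each result that depends on one of them is given with and without it. In bulk RNA such as this, fewer cells that express a gene and less RNA per cell cannot be told apart.

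The promoters of 5 members are shown first because they carry the E-box CACGTG and the core of the CLEAR element, TCACGTGA, which contains the E-box. Their transcripts did not all change alike, and the part of the motif in this was not tested. Each window runs from 250 bases before to 20 bases after the RefSeq transcription start (GRCh38.p14), is written 5′ to 3′ on the strand of the gene, and has every E-box in capitals. Both motifs read the same on either strand. The CTSA window (chr20:45891085-45891354, plus strand) holds 2 E-boxes, 1 of which lies in a CLEAR core, and CTSA fell. The MCOLN1 window (chr19:7522374-7522643, plus strand) holds 2 CLEAR cores and MCOLN1 fell. The GAA window (chr17:80101331-80101600, plus strand) also holds 2 CLEAR cores and GAA rose. The LAMP1 window (chr13:113296989-113297258, plus strand) holds 6 E-boxes, 2 of them CLEAR cores, and the ATG3 window (chr3:112561943-112562212, minus strand) holds 2 E-boxes, 1 of them a CLEAR core. Neither LAMP1 nor ATG3 passed the test.
CTSA: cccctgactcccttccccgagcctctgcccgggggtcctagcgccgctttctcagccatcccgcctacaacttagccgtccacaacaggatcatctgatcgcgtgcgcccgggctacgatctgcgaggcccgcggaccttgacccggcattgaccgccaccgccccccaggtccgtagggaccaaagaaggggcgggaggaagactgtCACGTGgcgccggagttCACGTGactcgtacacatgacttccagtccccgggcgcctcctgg
MCOLN1: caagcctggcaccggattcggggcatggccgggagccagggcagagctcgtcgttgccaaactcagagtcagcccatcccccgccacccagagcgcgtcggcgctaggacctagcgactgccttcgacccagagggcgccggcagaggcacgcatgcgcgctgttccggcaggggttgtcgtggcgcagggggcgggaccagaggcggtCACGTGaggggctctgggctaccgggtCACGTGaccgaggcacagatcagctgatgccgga
GAA: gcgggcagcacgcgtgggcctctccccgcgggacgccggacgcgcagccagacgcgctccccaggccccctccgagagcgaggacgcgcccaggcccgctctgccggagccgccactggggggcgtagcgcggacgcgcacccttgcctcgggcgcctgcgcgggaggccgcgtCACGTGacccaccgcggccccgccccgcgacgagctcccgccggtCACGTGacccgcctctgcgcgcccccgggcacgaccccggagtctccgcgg
LAMP1: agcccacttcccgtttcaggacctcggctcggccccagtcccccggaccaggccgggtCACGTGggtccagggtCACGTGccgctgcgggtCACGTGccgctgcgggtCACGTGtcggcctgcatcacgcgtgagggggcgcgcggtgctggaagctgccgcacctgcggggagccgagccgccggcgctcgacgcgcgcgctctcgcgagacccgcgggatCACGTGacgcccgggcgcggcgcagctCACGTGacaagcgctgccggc
ATG3: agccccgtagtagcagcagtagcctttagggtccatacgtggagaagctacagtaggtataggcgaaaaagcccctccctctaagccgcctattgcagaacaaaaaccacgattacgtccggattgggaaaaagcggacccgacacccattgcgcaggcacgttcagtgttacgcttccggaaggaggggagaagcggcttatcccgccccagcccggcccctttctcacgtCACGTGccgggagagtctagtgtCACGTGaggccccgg

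Among the 39 listed genes, more autophagy genes rose than fell after siCHKA, and more lysosome genes fell than rose. The latter held only with TMM, RLE or DESeq2 scaling and not when counts were scaled to library size alone. Lysosome genes outside the list, described below, did not all follow it. Of these, 16 other hydrolases and activators fell and 12 rose, 2 other membrane genes fell and 9 rose, and 3 proton pump genes fell and 9 rose. Of the 17 lysosome genes, 8 (47.1%) were lower and 2 (11.8%) higher after siCHKA at an adjusted p below 0.05, and 7 did not pass. Of the 20 autophagy genes, 5 (25.0%) were lower and 10 (50.0%) higher, and 5 did not pass. The background was broad, since 30.1% of all 14501 tested genes were lower and 32.1% higher. Over the whole list of 39 genes, 14 lower (35.9%) and 12 higher (30.8%), the shares lay near that background. The lysosome genes held fewer rises and the autophagy genes more rises than that. The median log2 fold change was -0.07 for the lysosome genes and 0.18 for the autophagy genes, against 0.03 over all genes tested. Without SQSTM1, a cargo receptor and not part of the formation machinery, the autophagy genes gave 4 lower and 10 higher with a median of 0.20. The scaling matters here. The TMM factors were 1.02 to 1.07 in siCHKA samples and 0.922 to 0.965 in siNT samples, and reads on no annotated feature made up 4.82% to 5.97% and 3.95% to 4.90% of all reads. With library size alone, an alternative chosen after seeing the data, the median of all genes was higher by 0.15 on the log2 scale, and 20.7% of genes were lower and 46% higher. The share of rises among all called genes went from 51.5% to 69.0%. Lysosome genes then gave 7 lower and 7 higher with a median of 0.08, and autophagy genes 2 lower and 12 higher with a median of 0.33. Relative to the median of all genes, the lysosome genes lay at -0.10 under both scalings and the autophagy genes at 0.14. A change of scaling shifts all genes by nearly the same amount, so these differences could hardly change and do not test the scaling. CTSZ, TFE3, ATG5, ATG16L1 and SQSTM1 lost their calls, whereas CTSB, CTSL, HEXA, NPC2, LIPA, TFEB, ATG3 and GABARAPL2 passed as higher. Which scaling fits these cells was not tested, and all values that follow use TMM. Since the list was drawn up with results of these data known, no test of the difference between the groups of genes was made.

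**Figure D1:**
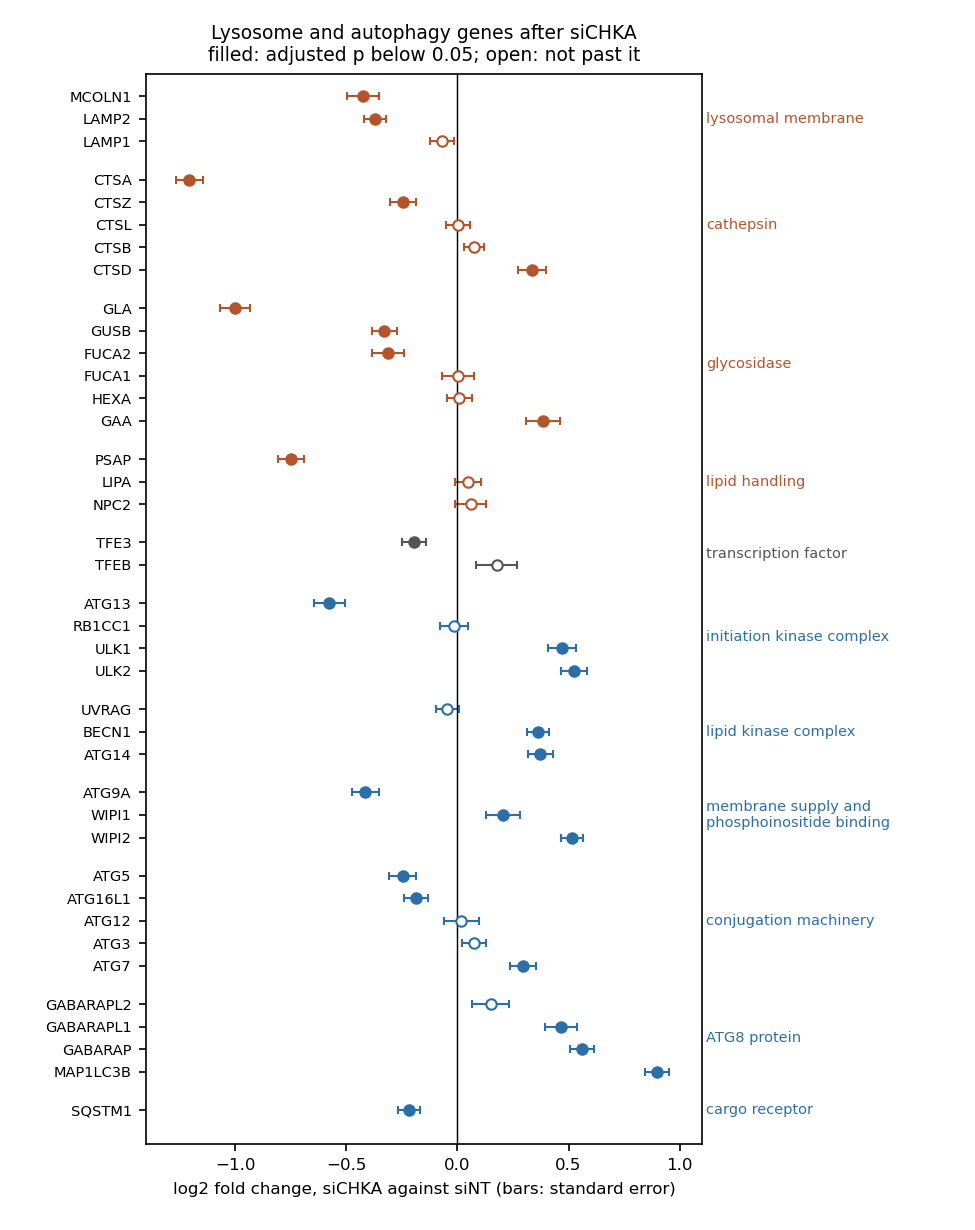
Log2 fold change of siCHKA against siNT for the 39 genes, grouped by role, with standard errors as bars, filled where the adjusted p was below 0.05. The lysosome genes reach from -1.21 (CTSA) to 0.38 (GAA) and the autophagy genes from -0.58 (ATG13) to 0.90 (MAP1LC3B).

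The size of the changes was modest for most members. A log2 fold change of at least 0.5 in size was reached by 3 lysosome genes that fell, CTSA, GLA and PSAP, by 1 autophagy gene that fell, ATG13, and by 4 autophagy genes that rose, MAP1LC3B, GABARAP, ULK2 and WIPI2. Across all genes tested, 14.0% were lower and 16.2% higher by that much. The CPM values of the siCHKA and siNT samples did not overlap for 9 members that were lower and 10 that were higher, where 40.6% of all tested genes had groups without overlap in either direction. In each sample the median of the lysosome genes, taken as log2 CPM relative to the siNT mean of each gene, was -0.18 to -0.06 after siCHKA and -0.05 to 0.06 after siNT. The same median of the autophagy genes was 0.15 to 0.25 after siCHKA and -0.02 to 0.03 after siNT. Neither pair of ranges overlapped, although the lysosomal ranges lay close to each other, at -0.0558 and -0.0518 where nearest. The same median of all genes tested did not overlap either. It was 0.0161 to 0.0404 after siCHKA and -0.00298 to 0.0159 after siNT. A lack of overlap in these medians therefore does not set the listed genes apart.

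**Figure D2:**
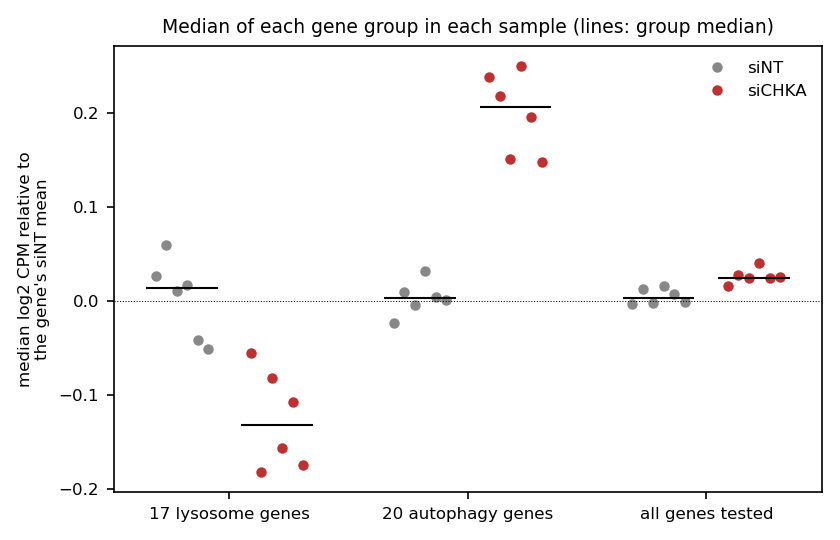
Median over the 17 lysosome genes, the 20 autophagy genes and all genes tested of log2 CPM relative to the siNT mean of each gene, with 1 point per sample and lines at the median of each group of samples. The siCHKA points sit at -0.18 to -0.06 for lysosome genes, at 0.15 to 0.25 for autophagy genes and at 0.02 to 0.04 for all genes tested.

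CTSA had the largest fall among the 39 genes. CTSA (ENSG00000064601, chromosome 20, 45890144 to 45898949 on the plus strand in GRCh38) encodes cathepsin A, a carboxypeptidase that also holds together the lysosomal complex of β-galactosidase and neuraminidase. Its level was 22.0 to 24.9 CPM with a median of 23.5 after siCHKA, and 49.7 to 60.9 CPM with a median of 53.4 after siNT. Every siCHKA sample lay below every siNT sample, and the siCHKA mean was 43.4% of the siNT mean. The log2 fold change was -1.21 (SE 0.06, edgeR quasi-likelihood test with Benjamini-Hochberg adjustment, adjusted p = 2.67e-11). In the current annotation 10.8% of its transcript overlaps PLTP on the opposite strand.

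The other cathepsins moved less, and in both directions. CTSZ, a cysteine carboxypeptidase, fell from a median of 80.1 to 65.4 CPM (log2 fold change -0.24, edgeR adjusted p = 0.0014), with overlapping groups, and did not pass with library size alone (log2 fold change -0.09, edgeR adjusted p = 0.167). CTSB and CTSL, cysteine proteases with broad substrates, had log2 fold changes of 0.07 (SE 0.05, adjusted p = 0.167) and 0.00 (SE 0.05, adjusted p = 0.993) in the same test. CTSD, the main aspartic protease of the lysosome, rose from 96.9 to 112 CPM after siNT to 116 to 145 CPM after siCHKA, without overlap (log2 fold change 0.34, edgeR adjusted p = 0.000177). The 5 cathepsins thus held 2 that fell, 1 that rose and 2 that did not pass. For CTSD the assignment of reads is less sure, because 69.4% of its transcript overlaps other annotated genes, among them a readthrough transcript on the same strand.

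Among the glycosidases, GLA fell most. GLA (ENSG00000102393, chromosome X, 101393273 to 101408012 on the minus strand) encodes α-galactosidase A, the enzyme missing in Fabry disease. It was measured at 15.4 to 19.8 CPM with a median of 17.0 after siCHKA and at 31.4 to 36.3 CPM with a median of 34.8 after siNT. The groups did not overlap, and the siCHKA mean was 50.2% of the siNT mean (log2 fold change -0.999, SE 0.07, edgeR quasi-likelihood test, adjusted p = 1.25e-09). GUSB, the β-glucuronidase, fell from 68.0 to 73.6 CPM in siNT samples to 50.0 to 61.9 CPM, again without overlap (log2 fold change -0.33, edgeR adjusted p = 7.37e-05). FUCA2, an α-fucosidase that is mainly secreted, fell with overlapping groups (log2 fold change -0.31, edgeR adjusted p = 0.00104). FUCA1, its lysosomal relative, and HEXA, the α subunit of β-hexosaminidase, had log2 fold changes of 0.00 (SE 0.07) and 0.01 (SE 0.06), with adjusted p of 0.979 and 0.905 in the same edgeR fit. GAA, which degrades lysosomal glycogen, was the exception in the other direction, at 76.6 to 104 CPM after siCHKA and 65.7 to 83.5 CPM after siNT (log2 fold change 0.38, edgeR adjusted p = 0.000331). Its siCHKA replicates 2, 4 and 6 all rounded to 104 CPM, and replicates 1, 3 and 5 reached 76.6 to 90.8 CPM. The overlap with siNT came from siCHKA replicate 1 alone, at 76.6 CPM.

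PSAP was both the most abundant lysosome gene and 1 of the 3 that fell most. PSAP (ENSG00000197746, chromosome 10, 71816298 to 71851251 on the minus strand) encodes prosaposin, the precursor of the saposins that present sphingolipids to lysosomal hydrolases. It ran from 477 to 550 CPM with a median of 506 after siCHKA and from 768 to 940 CPM with a median of 872 after siNT. No siCHKA sample reached the lowest siNT sample. The log2 fold change was -0.75 (SE 0.06, edgeR quasi-likelihood test, adjusted p = 6.22e-09), leaving 59.5% of the siNT mean. The other genes of lysosomal lipid handling did not pass: NPC2, which passes cholesterol on to the membrane, had a log2 fold change of 0.06 (SE 0.07, edgeR adjusted p = 0.465) and LIPA, the acid lipase, of 0.05 (SE 0.06, edgeR adjusted p = 0.514).

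Among lysosomal membrane genes, LAMP2 and MCOLN1 fell and LAMP1 did not pass. LAMP2, a heavily glycosylated protein of the limiting membrane that also takes part in chaperone-mediated autophagy, fell from 409 to 460 CPM to 315 to 360 CPM (log2 fold change -0.37, SE 0.05, edgeR adjusted p = 6.05e-06). MCOLN1, the calcium-releasing channel TRPML1, fell from 15.4 to 20.2 CPM to 11.9 to 14.5 CPM (log2 fold change -0.42, SE 0.07, edgeR adjusted p = 8.26e-05). In both genes the groups did not overlap. LAMP1, the most used marker of lysosomes, was at 126 to 151 CPM after siCHKA and 137 to 155 CPM after siNT (log2 fold change -0.07, edgeR adjusted p = 0.288). With siCHKA replicates 2, 4 and 6 alone LAMP1 had a log2 fold change of -0.17 and passed (edgeR adjusted p = 0.0139), and with replicates 1, 3 and 5 alone it was at 0.02 and did not (edgeR adjusted p = 0.732).

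**Figure D3:**
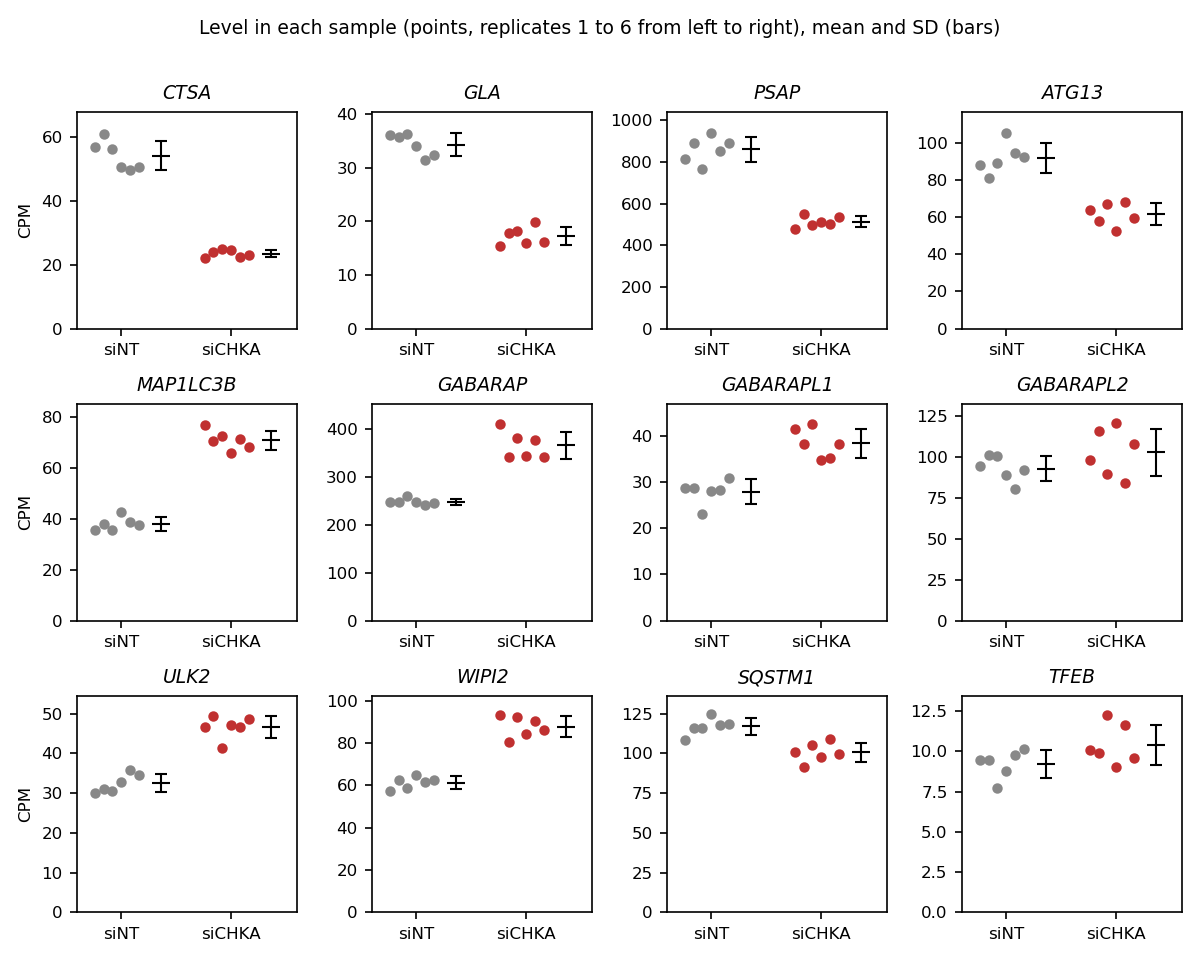
CPM of 12 members in each sample, replicates 1 to 6 from left to right within each group, with the mean and SD beside them and every axis starting at 0. CTSA at 22.0 to 24.9 CPM and MAP1LC3B at 65.7 to 76.9 CPM after siCHKA lie clear of their siNT samples, whereas the groups overlap for GABARAPL2, SQSTM1 and TFEB.

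The products of the ATG8 genes are attached to the autophagosome membrane and bind cargo receptors. MAP1LC3B and GABARAP from this family had the largest rises among the 39 genes. GABARAPL1 rose less than ULK2 and WIPI2, and GABARAPL2 did not pass. MAP1LC3B (ENSG00000140941, chromosome 16, 87383953 to 87404779 on the plus strand), which encodes LC3B, was at 65.7 to 76.9 CPM with a median of 70.9 after siCHKA and at 35.5 to 42.6 CPM with a median of 37.8 after siNT. The groups were far apart, with a siCHKA mean at 187% of the siNT mean. Its log2 fold change was 0.90 (SE 0.05, edgeR quasi-likelihood test, adjusted p = 3.15e-10), the largest rise among the 39 genes. Of the 40-base stretches of its transcript, 19.7% also occur in MAP1LC3B2 or MAP1LC3BP1, and reads from those stretches could have been left out of the counts.

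GABARAP (ENSG00000170296, chromosome 17, 7240008 to 7242449 on the minus strand), from the ATG8 subfamily that acts in autophagosome maturation, was at 340 to 410 CPM with a median of 360 after siCHKA. After siNT it was at 240 to 260 CPM with a median of 247, so the groups did not overlap. The log2 fold change was 0.56 (SE 0.05, edgeR quasi-likelihood test, adjusted p = 1.05e-07). GABARAP shares 66.6% of its 40-base stretches with other transcripts of the current annotation. None of its transcript overlaps the exons of another gene in the count files, and what the sharing does to its counts was not tested. GABARAPL1 rose from 23.0 to 30.9 CPM with a median of 28.5 to 34.7 to 42.5 CPM with a median of 38.3, without overlap (log2 fold change 0.46, SE 0.07, edgeR adjusted p = 2.44e-05). GABARAPL2 was at 84.3 to 121 CPM with a median of 103 after siCHKA and at 80.3 to 101 CPM with a median of 93.0 after siNT. These ranges overlapped, and the log2 fold change of 0.15 (SE 0.08, edgeR adjusted p = 0.134) did not pass. GABARAPL2 divided by sample set: siCHKA replicates 2, 4 and 6 were at 108 to 121 CPM and replicates 1, 3 and 5 at 84.3 to 98.3 CPM. With the former alone it passed (log2 fold change 0.30, edgeR adjusted p = 0.0015), and with the latter alone its log2 fold change was -0.03 (edgeR adjusted p = 0.772).

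The initiation kinase complex was split between its subunits. ULK2, a kinase that starts autophagosome formation, rose from 30.0 to 35.7 CPM with a median of 32.1 to 41.4 to 49.5 CPM with a median of 46.9 (log2 fold change 0.52, SE 0.06, edgeR adjusted p = 7.5e-07). ULK1, its better known relative and a target of mTORC1 and AMPK, rose from 30.9 to 38.9 CPM to 44.9 to 54.3 CPM (log2 fold change 0.47, SE 0.06, edgeR adjusted p = 6.46e-06). Neither kinase had a siCHKA sample within the siNT range. ATG13 (ENSG00000175224, chromosome 11, 46617527 to 46674818 on the plus strand), the adaptor that joins the kinases to the complex, moved the other way. It was at 52.7 to 68.3 CPM with a median of 61.6 after siCHKA and at 81.1 to 105 CPM with a median of 90.7 after siNT. The groups did not overlap and the log2 fold change was -0.58 (SE 0.07, edgeR quasi-likelihood test, adjusted p = 1.72e-06). RB1CC1, the scaffold FIP200, was at 107 to 126 CPM and 105 to 129 CPM in the siCHKA and siNT samples (log2 fold change -0.02, SE 0.06, edgeR adjusted p = 0.844).

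In the lipid kinase complex, which makes the phosphoinositide that marks the forming membrane, BECN1 and ATG14 rose. BECN1, the Beclin 1 scaffold, went from 65.9 to 67.6 CPM after siNT to 80.8 to 94.6 CPM after siCHKA (log2 fold change 0.36, SE 0.05, edgeR adjusted p = 6.41e-06). ATG14, the subunit that directs the complex to autophagosome formation, went from 20.2 to 23.5 CPM to 26.9 to 30.6 CPM (log2 fold change 0.37, SE 0.06, edgeR adjusted p = 1.78e-05). UVRAG, which takes the place of ATG14 in the complex that acts on endosomes, was at 25.9 to 29.2 CPM after siCHKA and 26.7 to 30.0 CPM after siNT (log2 fold change -0.05, SE 0.05, edgeR adjusted p = 0.459). Of the BECN1 and ATG14 transcripts, 37.7% and 22.2% overlap CNTD1 and FBXO34 on the opposite strand, and the strand setting of the counting was not given in the sources used here.

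Genes for membrane supply and for the proteins that read the phosphoinositide also diverged. WIPI2, which recruits ATG16L1 to the membrane, rose from 57.1 to 65.0 CPM with a median of 62.2 to 80.3 to 93.0 CPM with a median of 88.2 (log2 fold change 0.52, SE 0.05, edgeR adjusted p = 1.2e-07). WIPI1, its relative, had overlapping groups and rose by 0.20 on the log2 scale (SE 0.08, edgeR adjusted p = 0.0287). That call was not stable, since WIPI1 was at 21.7 to 23.2 CPM in siCHKA replicates 2, 4 and 6, inside the siNT range of 19.0 to 23.9 CPM, and with those replicates alone the adjusted p was 0.527 (edgeR). Of its transcript 28.3% overlaps ARSG on the opposite strand. ATG9A, the lipid scramblase on the vesicles that seed the autophagosome, fell from 74.0 to 81.6 CPM to 50.5 to 66.2 CPM without overlap (log2 fold change -0.41, SE 0.06, edgeR adjusted p = 1.4e-05). It shares 48.1% of its 40-base stretches with transcripts of another gene in the current annotation. None of its transcript overlaps the exons of another gene in the count files, and what the sharing does to its counts was not tested.

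The conjugation machinery showed small changes in both directions. ATG7, the E1-like enzyme that activates ATG8 proteins and ATG12, rose from 19.5 to 24.3 CPM to 26.0 to 28.6 CPM (log2 fold change 0.29, SE 0.06, edgeR adjusted p = 0.000333), with 29.9% of its transcript overlapping VGLL4 on the opposite strand. ATG5 and ATG16L1, which with ATG12 form the complex that places ATG8 proteins on the membrane, fell by 0.25 (SE 0.06, adjusted p = 0.00229) and 0.19 (SE 0.06, adjusted p = 0.00789) on the log2 scale in the edgeR fit. The groups overlapped for ATG5 and met at 34.3 CPM without overlap for ATG16L1, and the ATG16L1 call was lost with siCHKA replicates 2, 4 and 6 alone (edgeR adjusted p = 0.0611). With library size alone neither ATG5 (edgeR adjusted p = 0.209) nor ATG16L1 (edgeR adjusted p = 0.643) passed. ATG12 and ATG3, the E2-like enzyme, had log2 fold changes of 0.02 (SE 0.08, adjusted p = 0.858) and 0.07 (SE 0.05, adjusted p = 0.25). Of these 5 genes, 2 fell, 1 rose and 2 did not pass.

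SQSTM1 encodes p62, a receptor that carries ubiquitinated cargo into the autophagosome and is itself degraded there. Its transcript was at 91.6 to 109 CPM with a median of 100.3 after siCHKA and at 109 to 125 CPM with a median of 117 after siNT. The groups met at their edges. The log2 fold change was -0.22 (SE 0.05, edgeR quasi-likelihood test, adjusted p = 0.00116), in a gene of which 55.7% of the transcript overlaps MRNIP on the opposite strand. With library size alone the log2 fold change was -0.07 and did not pass (edgeR adjusted p = 0.214). Protein levels, LC3 conjugation and autophagic flux were not measured in these files.

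The transcription factors showed small differences at the level of RNA. TFEB was at 9.01 to 12.2 CPM with a median of 9.99 after siCHKA and at 7.70 to 10.1 CPM with a median of 9.47 after siNT. The groups overlapped, and the log2 fold change of 0.18 (SE 0.09, edgeR quasi-likelihood test, adjusted p = 0.108) did not pass, although with siCHKA replicates 1, 3 and 5 alone it was 0.30 and did (edgeR adjusted p = 0.0172). TFE3 was at 49.1 to 59.9 CPM with a median of 51.2 after siCHKA and at 58.7 to 62.0 CPM with a median of 60.0 after siNT. It fell by 0.20 on the log2 scale (SE 0.05, edgeR quasi-likelihood test, adjusted p = 0.00364) with overlapping groups, and with siCHKA replicates 1, 3 and 5 alone it did not pass (log2 fold change -0.11, edgeR adjusted p = 0.112). With library size alone TFE3 did not pass (log2 fold change -0.04, edgeR adjusted p = 0.456) and TFEB did (log2 fold change 0.33, edgeR adjusted p = 0.00527). Both factors are controlled by moving between cytoplasm and nucleus, which RNA counts do not show.

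Divided by the length of the canonical transcript, the levels of the members spanned a wide range. In siNT samples the highest were PSAP at 313 CPM per kb, GABARAP at 188, GABARAPL2 at 95.3, LAMP2 at 67.1 and NPC2 at 63.7 CPM per kb. The lowest were ULK2 at 3.55, TFEB at 3.95 and ATG7 at 4.14 CPM per kb. After siCHKA, GABARAP at 277 CPM per kb stood above PSAP at 186 CPM per kb, so the order of the top pair was exchanged. MAP1LC3B went from 17.7 to 33.0 CPM per kb, a level still well below those of GABARAP and GABARAPL2.

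The E-box was found in 7 of the 42 RefSeq promoter windows of 33 members (16.7%; 250 bases before to 50 bases after the start), against 7.26% of all 35116 promoter windows. The CLEAR core was found in 5 of the 42 (11.9%), against 0.98% of all windows. LAMP2, CTSB, HEXA, PSAP, RB1CC1 and UVRAG had no window here. Among lysosome genes, 5 held an E-box, of which 2 fell (CTSA and MCOLN1), 2 rose (GAA and CTSD) and LAMP1 did not pass. Of the 8 lysosome genes with a window but without an E-box, 4 fell, none rose and 4 did not pass, GLA among those that fell. Among autophagy genes, ATG14 rose and ATG3 did not pass, both with an E-box, and of the 16 without one 5 fell and 9 rose, MAP1LC3B, GABARAP, ULK2 and WIPI2 included. Only with both groups pooled did genes with and without the motif move in both directions. The lysosome genes without it held no rise, and the autophagy genes with it held no fall. The part of the motif in these changes was not tested, and a match in these letters does not show that a factor binds there.

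An earlier analysis of these counts found that genes whose 3′ UTR holds the words GCCAGAT or TGCCCTT tended to be lower, and the members were searched for them. Of the tested genes with an annotated 3′ UTR in the canonical transcript, 2906 (23.6%) held at least 1 copy. Their median log2 fold change was -0.12, against 0.04 for the 9390 without. Because the words were picked from these same counts, neither this difference nor the splits among the members below are separate evidence for them. Of the 39 members 11 (28.2%) held a copy. In the lysosome group these were LAMP2 with 2 copies and CTSA, CTSB, PSAP and LIPA with 1 copy, with a median log2 fold change of -0.37, and the 12 without had a median of -0.03. In the autophagy group ATG7 and ATG16L1 held 2 copies and ULK1, ULK2, RB1CC1 and ATG9A held 1 copy, with a median of 0.14, and the 14 without had a median of 0.18. ATG13 and MCOLN1, which fell, held no copy, and the annotated 3′ UTR of GLA, at 6 bases, is shorter than the words. The length of the 3′ UTR was not taken into account in these splits, and the part of these words in the result was not tested.

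The surrounding pathway was described with further lists of lysosome and autophagy genes that are not among the 39. Of 37 other lysosomal hydrolases and activators tested, 16 fell and 12 rose, with a median log2 fold change of 0.00. Their summed level nevertheless went from 2429 to 2526 CPM after siNT to 1948 to 1985 CPM after siCHKA, and abundant members were among those that fell. CTSC, which activates granule proteases, fell from 94.3 ± 2.21 to 29.9 ± 1.06 CPM (SD, n = 6; log2 fold change -1.66). PPT1, a thioesterase that removes palmitate, fell from 243 ± 17.3 to 87.3 ± 7.38 CPM (SD, n = 6; log2 fold change -1.47). TPP1, a peptidase, had a log2 fold change of -0.95. The rises included CTSO (1.34), GALNS (0.86), AGA (0.55) and NEU1 (0.82), the neuraminidase that depends on cathepsin A for its stability, which went from 45.5 ± 2.72 to 80.3 ± 4.53 CPM (SD, n = 6) while CTSA fell.

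Sorting of enzymes to the lysosome was also mixed. Of 14 genes for mannose 6-phosphate tagging and sorting, 6 fell and 5 rose. M6PR, the smaller mannose 6-phosphate receptor, fell from 81.3 ± 5.00 to 36.7 ± 1.98 CPM (SD, n = 6; log2 fold change -1.15), and GNPTAB, which makes the tag, had a log2 fold change of -0.83. SORT1 fell too (-0.82), and IGF2R, the larger receptor, rose (0.46). Among 21 other lysosomal membrane proteins 2 fell, SLC36A1 (-1.42) and SPNS1 (-0.42), and 9 rose, OSTM1 (0.46) and TMEM192 (0.42) among them. Of 17 subunits of the vacuolar proton pump, which acidifies the lysosome, 3 fell and 9 rose with a median of 0.17, ATP6V0A2 being the largest fall (-0.92) and ATP6V1H the largest of the named rises (0.43).

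Autophagy genes outside the list moved in both directions. Of 20 other autophagosome formation genes tested, 3 fell and 9 rose, with a median log2 fold change of 0.15. TMEM41B, a lipid scramblase of the endoplasmic reticulum, fell from 146 ± 7.43 to 55.7 ± 3.56 CPM (SD, n = 6; log2 fold change -1.39), whereas VMP1, which acts with it, rose (0.28). PIK3R4, a subunit of the lipid kinase complex of BECN1, fell (-0.58). Of 10 other autophagy receptors 2 fell and 3 rose, OPTN most (1.19). The 15 genes for fusion of autophagosome and lysosome held 5 falls, VPS33A (-0.66), VAMP8 and STX17 (-0.43 both) among them, and 2 rises, VPS11 (0.26) and YKT6 (0.23).

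Of 31 genes for nutrient sensing at the lysosome 6 fell and 17 rose, with a median of 0.22. DEPTOR, an inhibitor of mTOR, rose from 37.7 ± 3.59 to 101 ± 8.18 CPM (SD, n = 6; log2 fold change 1.43), and RRAGD (0.76) and LAMTOR4 (0.73) also rose. PRKAA1, the catalytic α1 subunit of AMPK, fell (-0.57). Of 4 further transcriptional regulators tested, ZKSCAN3, a repressor of autophagy genes, rose (0.56) and the other 3 did not pass. Each rise and fall in these lists is at an adjusted p below 0.05 in the edgeR fit over all 14501 genes, read against the same background of 30.1% lower and 32.1% higher. With library size alone the counts shifted towards rises: the other hydrolases gave 14 lower and 16 higher and the fusion genes 5 lower and 8 higher. The other formation genes then gave 3 lower and 15 higher and the nutrient sensing genes 1 lower and 22 higher. The proton pump genes gave 1 lower and 12 higher and the other autophagy receptors 0 lower and 6 higher. The genes named here from these lists kept call and direction, whereas other genes in these lists lost their calls as lower.

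**Figure D4:**
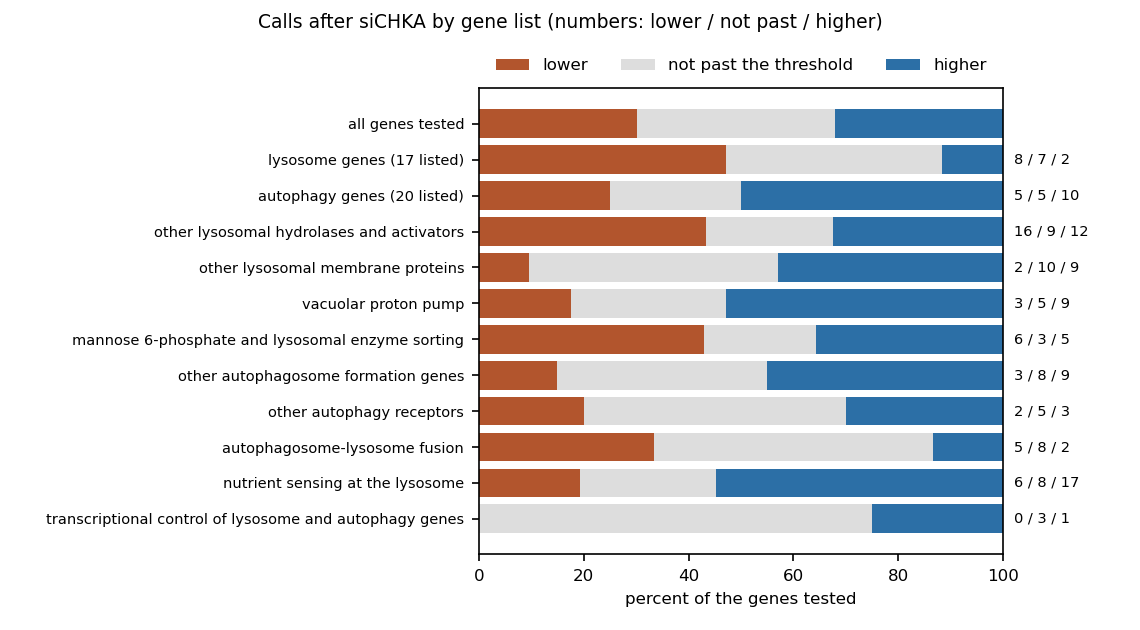
Percent of the tested genes of each list that were lower, not past the threshold or higher after siCHKA, with the number of genes at the right. The 17 listed lysosome genes have 8 lower and 2 higher, the 20 listed autophagy genes 5 lower and 10 higher, and all genes tested are at the top.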

How the data were processed

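RNA sequencing counts of 12 samples, 6 siCHKA and 6 siNT, were analysed, with groups and replicate numbers taken from the labels. The authors prepared TruSeq libraries, mapped 40-base single-end reads to GRCh37 (TopHat2 2.0.4) and counted them per Ensembl gene (HTSeq 0.5.3p9) (DESeq 1.10.1 is named for their tests, per the labels and methods). The deposited counts were not normalized, and the 4 files of each sample were added together here. That counting drops reads with several alignments or on more than 1 gene, and its strand setting was not given in the sources used here. Rows that name no gene held 35.7% to 39.0% of the reads of siCHKA samples and 33.9% to 36.8% of those of siNT samples and were not used. The study describes its samples as 6 biological replicates in 1 place and as triplicate experiments in another, and the labels do not say whether the samples of a group came from separate cultures, so p-values measure the spread between these samples, which may be technical.

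Counts were filtered with filterByExpr, normalized with TMM and tested with the quasi-likelihood test of edgeR 4.0.16 (R 4.3.3) without covariates, with Benjamini-Hochberg adjustment over all 14501 genes and a threshold of 0.05. Standard errors were derived from each F statistic, and log2 CPM used a prior count of 2. The floor of 3 counts corresponds to 0.124 to 0.281 CPM and covers counting error only. The fit was tested on simulated counts of siCHKA against siNT, in which edgeR recovered 93.8% of 194 genes changed 2-fold, with 15 false calls over 14352 genes. The simulated samples were independent and held far fewer changed genes than the data. They therefore do not bear on the choice of scaling or on the sets of replicates. Symbols, GRCh38 coordinates, transcript lengths, overlaps and 3′ UTRs came from GENCODE 44 by Ensembl identifier, and promoter windows from RefSeq (GRCh38.p14). Of 201 genes in the further lists and marker lists, 199 matched an identifier, with CCPG1 and PECAM1 unmatched.

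The members and lists were chosen with earlier results of these data known. Members with an adjusted p below 0.05 and a log2 fold change of at least 0.5 in size, the ATG8 genes, SQSTM1, TFEB and TFE3 are given in full, and at most the 4 genes with the smallest p in each direction are named from each further list. Some genes that this rule would name are not reported here. Alternatives were RLE normalization, DESeq2 1.42.0, no filter, a minimum of 10 counts in all samples, a replicate block, 1 count file per sample, siCHKA replicates 1, 3 and 5 or 2, 4 and 6 only, each replicate left out, and a 1.5-fold minimum, and, chosen after seeing the data, library size without TMM factors. Python 3.11.15 was used for the remaining steps.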

Additional observations from a re-analysis of the deposited data

Results flagged for a closer look

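In 3 of the 80 groups of values examined, a single sample lay apart from the other samples of its group by Dixon's criterion, where chance alone gives about 1 in 20, or 4 groups. ULK2 was at 41.4 CPM in siCHKA replicate 3 and at 46.7 to 49.5 CPM in the other siCHKA samples. BECN1 was at 65.9 CPM in siNT replicate 6 and at 67.0 to 67.6 CPM in the other siNT samples. GABARAPL1 was at 23.0 CPM in siNT replicate 3 and at 28.0 to 30.9 CPM in the other siNT samples. All 3 genes passed the edgeR test without that sample as well.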

How the results depend on the processing

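Across 21 alternative fits, 787 of 819 member values kept their direction and side of the threshold, or stayed short of it, 19 lost their call, 13 gained one and none of the called values reversed. The 1.5-fold minimum is not among these 21 and removed most calls, as given below. Of the 26 called members 20 kept call and direction in all 21 fits, the exceptions being WIPI1, TFE3, ATG16L1, CTSZ, ATG5 and SQSTM1. With library size only, which was chosen after seeing the data, 7 lysosome genes were lower and 7 higher with a median of 0.083, 2 autophagy genes were lower and 12 higher with a median of 0.33, and 2995 of all genes were lower and 6666 higher against 4371 and 4650 with TMM. With a 1.5-fold minimum, 3 lysosome genes were lower and 0 higher, and 0 autophagy genes lower and 1 higher. With siCHKA replicates 2, 4 and 6 only, the lysosome median was -0.17, and with 1 count file per sample the autophagy median was 0.23. With 1 count file, TFEB passed (log2 fold change 0.42, edgeR adjusted p = 0.00592) and TFE3 (edgeR adjusted p = 0.0916) and ATG16L1 (edgeR adjusted p = 0.0794) did not. WIPI1 also lost its call without a filter (edgeR adjusted p = 0.093) and in 7 of the fits that left out 1 replicate, with log2 fold changes of 0.16 to 0.20 in those 7, and GABARAPL2 passed without siCHKA replicate 5 (log2 fold change 0.20, edgeR adjusted p = 0.0379). Leaving out each replicate gave lysosome medians of -0.09 to -0.04 and autophagy medians of 0.15 to 0.19, with 8 lysosome genes lower, 2 higher, 5 autophagy genes lower and 9 to 10 higher. The cause was not tested.

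Replicate numbers did not pair the samples: same-numbered samples had correlations of their deviations from the group means of -0.40 to 0.32, and only replicate 2 correlated best with its own number. A fit with the replicate block called 4273 genes lower and 4494 higher, the lysosome genes gave 8 lower and 2 higher with a median of -0.07, the autophagy genes 5 lower and 9 higher with a median of 0.17, and WIPI1 did not pass (edgeR adjusted p = 0.0561).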
